A study of Mus musculus with 5 samples.

Results

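Vdr neurons of the medial part of the mouse central amygdala (CeM) were described from single-nucleus RNA sequencing (snRNA-seq) of the central amygdala (CeA). A nucleus counted as a Vdr neuron when it held 500 to 8000 detected genes, a mitochondrial share of unique molecular identifiers (UMIs) under 0.8%, at least 1 UMI of Gad1 or Gad2 and at least 1 UMI of Vdr. It also had to stay under 5 UMIs of Rarb, 8 of Foxp2 and 15 of Pde1c per 10000 UMIs of the nucleus, and under 6 for the sum of Dnah5, Vipr2, Tac2 and Nts. These limits keep out nuclei high in Rarb, Foxp2 or Pde1c and the Nts/Tac2 neurons of the lateral part (CeL). The gate found 103 Vdr neurons among 6020 Gad1/Gad2 nuclei (1.71%) and 7161 nuclei within the bounds. Vdr and the other gate genes chose the members, so their values are a description and were not tested. The members were chosen on measured counts, and the position of a nucleus within the CeA was not measured.

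There were 5 libraries, each from the pooled CeA tissue of 1 male and 1 female brain, so that 1 library is 1 replicate. Fed replicates 1 and 2 (fed 1 and fed 2) came from naive 8-week-old wild-type C57BL/6NRj mice. Fed replicate 3 (fed 3) came from 12-week-old Htr2a-Cre bacterial artificial chromosome transgenic mice carrying AAV-DIO-mCherry, in which mCherry is switched on in cells with Cre activity. Fasted replicates 1 and 2 (fasted 1 and fasted 2) came from 8-week-old wild-type C57BL/6NRj mice, labelled as fasted for 20 and 21 hours. The files held 17321997, 21286947 and 23820193 UMIs in fed 1, 2 and 3 and 29823990 and 53146326 in fasted 1 and 2. In the same order the Vdr neurons numbered 23, 10, 22, 15 and 33, and their UMIs summed to 283183, 160677, 334671, 117991 and 829756. Fasted 2 thus held the most nuclei and the most UMIs, and fed 2 and fasted 1 rested on the fewest.

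The vitamin D receptor, encoded by Vdr, is a nuclear receptor that binds calcitriol, the active form of vitamin D. It pairs with a retinoid X receptor on DNA and changes the transcription of genes for calcium handling and vitamin D breakdown. The CeM is the main output part of the CeA, built largely of GABA neurons that project to the brain stem and hypothalamus. Nociceptin, made from the Pnoc precursor, is an opioid-related peptide found in some CeA neurons, and Cacna1g encodes a T-type calcium channel used as a marker of the CeM.

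Vdr lies at chr15:97752306-97808511 (GRCm39, minus strand). Its summed level in the Vdr neurons was 311, 236 and 400.4 CPM in fed 1, 2 and 3 and 279.7 and 227 CPM in fasted 1 and 2, in counts per 1000000 UMIs of the summed nuclei (CPM). In single nuclei the median was 3 Vdr UMIs and the highest 22. There were 36 Vdr neurons with 1 Vdr UMI, 15 with 2 and 52 with 3 or more. Their median depth was 14909 UMIs, against 11916 in the other Gad1/Gad2 nuclei. A nucleus with 1 Vdr UMI differs from a nucleus with none by a single molecule, so membership at the low end is uncertain. Among nuclei without a Gad1 or Gad2 UMI, which had a median of 4203 UMIs, 2 of 1141 (0.175%) held a Vdr UMI.

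**Figure D1:**
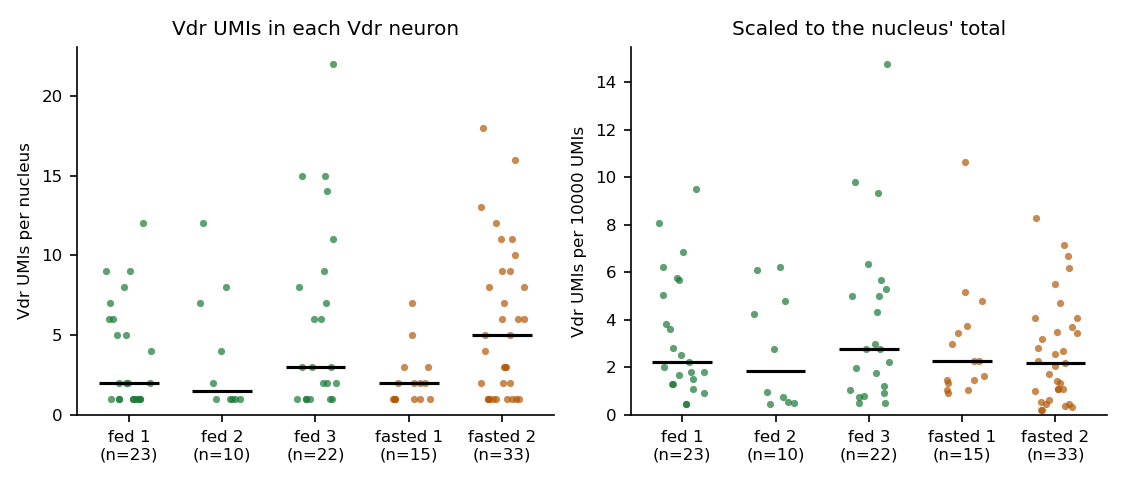
Vdr UMIs in each Vdr neuron (left, UMIs per nucleus) and the same per 10000 UMIs of the nucleus (right), by library, with 1 point per nucleus and the median as a line. All 5 libraries hold nuclei with 1 Vdr UMI as well as nuclei with 7 or more, and the medians per 10000 UMIs lie between 1.87 and 2.77.

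The exclusion limits removed 13 of the 116 Gad1/Gad2 nuclei with a Vdr UMI. Of these, 10 exceeded the limit for Dnah5, Vipr2, Tac2 and Nts, 2 exceeded that for Foxp2 and 1 that for Rarb, and none was removed for Pde1c. The highest Rarb value inside the gate was 4.53 per 10000 UMIs and the lowest outside was 6.58. For Foxp2 these values were 6.93 and 13.6, and for the sum of the CeL genes they were 4.98 and 6.39. Of the 103 members, 79 held no Rarb UMI, 79 no Foxp2 UMI, 78 no Pde1c UMI and 50 no UMI of the CeL genes. Doublet calling marked 70 of all nuclei within the bounds (0.978%), and 3 of them were Vdr neurons. No cell barcode was shared between the Vdr neurons of any pair of libraries, and among all nuclei within the bounds 3 pairs of libraries shared 1 barcode each.

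The label was checked against Pnoc and Cacna1g, which the gate did not use. Pnoc measured 49.4, 37.3 and 47.8 CPM in fed 1, 2 and 3 and 25.4 and 31.3 CPM in fasted 1 and 2 in the Vdr neurons, and 4.14 ± 0.825 CPM (SD, n = 5) in the other Gad1/Gad2 nuclei. The groups did not overlap in any library, and Pnoc was 9.13-fold higher (log2 fold change 3.19, SE 0.32, adjusted p = 6.86e-17, edgeR quasi-likelihood test). After each nucleus was thinned to 4000 UMIs, 15 of 101 Vdr neurons (14.9%, exact 95% interval 8.56 to 23.3%) held a Pnoc UMI, against 94 of 5577 other Gad1/Gad2 nuclei (1.69%) and 1 of 110 glial nuclei (0.909%). Without thinning, 40.6% of these Vdr neurons and 4.79% of the other nuclei held one. Intervals cover counting error only.

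Cacna1g measured 162, 106 and 194 CPM in fed 1, 2 and 3 and 161 and 104.9 CPM in fasted 1 and 2 in Vdr neurons, and 97.5 ± 18.3 CPM (SD, n = 5) in the other nuclei, with overlapping ranges. Its fold of 1.47 passed the adjusted p (log2 fold change 0.56, SE 0.13, adjusted p = 0.00118) but not the 2-fold limit, and against nuclei with the same exclusion limits and no Vdr UMI the adjusted p was 0.0887. In thinned nuclei 44.6% of Vdr neurons and 26.4% of other Gad1/Gad2 nuclei held a Cacna1g UMI. Cacna1g was thus also common outside the Vdr neurons.

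Some defining markers of other cell types had no UMI in the Vdr neurons and others were present. Slc17a7 of excitatory neurons, Nkx2-1 and Pvalb of interneurons of the basolateral amygdala, Pdgfra of oligodendrocyte precursors and Csf1r of microglia were at 0. Other markers of these types were above 0. Slc17a6 of excitatory neurons gave 2 UMIs, 1.44 times the level of the other nuclei (counting interval 0.171 to 5.42). Lhx6 gave 2 UMIs (0.146 times), Cspg4 of oligodendrocyte precursors 3 (0.391 times) and Cx3cr1 of microglia 2 (0.193 times). Cldn5 and Flt1 of endothelium gave 1 UMI each (2.5 and 0.755 times). The 3 astrocyte markers summed to 17.7, 0 and 12.0 CPM in fed 1, 2 and 3 and 8.48 and 12.1 CPM in fasted 1 and 2, with Slc1a3 the most abundant, and 2 of the 3 were lower than in the other nuclei. The 3 oligodendrocyte markers summed to between 118 and 192 CPM, of which Mbp made 115 CPM in Vdr neurons and 116 CPM in the other nuclei. Of the 17 markers of other inhibitory types, 10 were tested, 6 were lower and none was higher, with Tafa1 the most abundant at 208 CPM, against 147 CPM in the other nuclei. The part of RNA from other cells in these levels was not tested.

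Across all genes the Vdr neurons had a distinct profile. Of 12537 genes tested against the other Gad1/Gad2 nuclei, 175 (1.4%) were higher and 309 (2.46%) lower at a Benjamini-Hochberg adjusted p under 0.05 and a fold of at least 2. Against the 4025 nuclei that met the same exclusion limits and held no Vdr UMI, 138 genes (1.13%) were higher and 311 (2.54%) lower, and 130 higher and 243 lower genes were shared between both comparisons. The 20 genes named here for being higher were called in both, were higher in all 5 libraries and held at least 50 UMIs in the Vdr neurons. They are receptors and a peptide precursor (Npsr1, Glp1r, Npy1r, Grik1, Pnoc), transcriptional regulators (Satb1, Onecut2, Elk3, Ctbp2), surface and matrix proteins (Cntnap3, Sema3a, Col5a2, Ptchd4), signalling and channel proteins (Rasa4, Stac, Kcnt2, Plpp4), and Kif26a, Vwa5b1 and Klhl33.

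**Figure D2:**
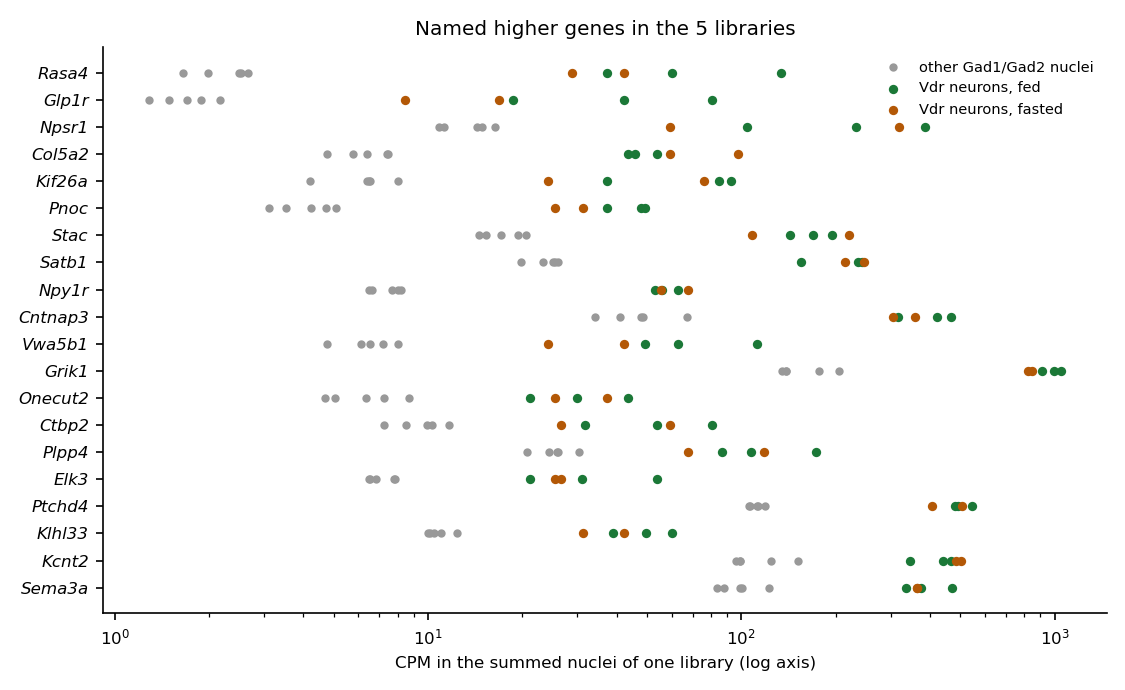
Level of the 20 named higher genes, in CPM of the summed nuclei of 1 library on a log axis, with 1 point per library for the Vdr neurons (fed and fasted in colour) and for the other Gad1/Gad2 nuclei (grey). For each of the 20 genes the lowest Vdr neuron value lies above the highest value of the other nuclei.

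Of the peptide and hormone receptors among these genes, Npsr1, the receptor of neuropeptide S, measured 233, 386 and 104.6 CPM in fed 1, 2 and 3 and 59.3 and 318 CPM in fasted 1 and 2, against 13.5 ± 2.404 CPM (SD, n = 5) in the other nuclei. It was 16.1-fold higher (log2 fold change 4.01, SE 0.17, adjusted p = 4.71e-56). The values spread widely. A Npsr1 UMI was held by 37.9% of Vdr neurons, in fed 2 a single nucleus gave 39 of 62 UMIs, and in fasted 1 the total was 7 UMIs from 2 nuclei. Glp1r, the receptor of glucagon-like peptide 1, measured 42.4, 18.7 and 80.7 CPM in fed 1, 2 and 3 and 8.48 and 16.9 CPM in fasted 1 and 2, against 1.71 ± 0.343 CPM (SD, n = 5). All 3 fed values of Glp1r lay above both fasted values in the Vdr neurons, without a difference that passed the test (log2 fold change -1.70 fasted against fed, adjusted p = 0.908). The Glp1r value of fed 2 rested on 3 UMIs and that of fasted 1 on 1 UMI. Npy1r, a receptor of neuropeptide Y, was the steadiest of these genes, at 59.0 ± 6.11 CPM (SD, n = 5) in Vdr neurons against 7.41 ± 0.806 CPM (SD, n = 5).

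The list of feeding hormone and peptide receptors held 22 tested genes, of which 6 were higher, 4 lower and 12 neither, beside 1.4% higher and 2.46% lower over all genes tested. Its median log2 fold change was -0.10, beside -0.03 over all genes tested. The higher members were Glp1r, Npy1r, Mc4r, Lepr, Npy5r and Galr1. Mc4r, the melanocortin receptor of the satiety pathway, measured 7.06, 24.9 and 14.9 CPM in fed 1, 2 and 3 and 42.4 and 14.5 CPM in fasted 1 and 2, and 1.34 ± 0.315 CPM (SD, n = 5) in the other nuclei (log2 fold change 3.56, SE 0.48, adjusted p = 2.74e-10). Lepr, the leptin receptor, measured 17.7, 6.22 and 17.9 CPM in fed 1, 2 and 3 and 25.4 and 30.1 CPM in fasted 1 and 2, and 3.48 ± 0.783 CPM (SD, n = 5) in the others (log2 fold change 2.59, SE 0.39, adjusted p = 1.98e-08). Both genes were low in every library, and all 5 Vdr neuron values of each lay above those of the other nuclei. The lowest values rested on 2 Mc4r UMIs in fed 1 and 1 Lepr UMI in fed 2. Npy5r was at 23.4 ± 6.53 CPM (SD, n = 5) against 3.31 ± 0.764 CPM (SD, n = 5), whereas Galr1 rested on 17 UMIs and overlapped the other nuclei, with no UMI in fed 2.

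The 4 lower members were Calcrl and Ramp1, the subunits of the CGRP receptor, Oxtr, the oxytocin receptor, and Ntsr1, a neurotensin receptor. Calcrl was at 19.3 ± 12.6 CPM (SD, n = 5) in Vdr neurons and 43.6 ± 10.1 CPM (SD, n = 5) in the other nuclei, and Ramp1 at 19.5 ± 16.2 CPM (SD, n = 5) and 57.5 ± 9.53 CPM (SD, n = 5). Oxtr had no UMI in the Vdr neurons, which against 3 counts over the group makes it at least 1.83-fold lower. This bound does not reach 2-fold, so its call rests on a fitted value over a group at 0, and its adjusted p of 0.0404 passed the threshold only with all 5 libraries. Without fed 1 the log2 fold changes and adjusted p were -0.70 and 0.117 for Calcrl, -0.94 and 0.00373 for Ramp1 and -0.95 and 0.137 for Ntsr1, so that each lost its call. Ntsr1 lost it without fasted 2 as well (-1.10 and 0.148), Calcrl without fed 2 (-0.93 and 0.00548), and Ramp1 without fed 2 (-0.92 and 0.00101) or fasted 1 (-0.98 and 9.78e-04). With DESeq2, Calcrl, Oxtr and Ntsr1 lost their calls. Calcrl also lost it once comparison nuclei with glial or excitatory markers were removed, and Oxtr with at least 2 or 3 Vdr UMIs. Ghsr, the ghrelin receptor, had no UMI in the Vdr neurons and 1 UMI in all other Gad1/Gad2 nuclei, so its expression could not be judged at this depth. Against the nuclei with the same exclusion limits the list gave 6 higher and 3 lower genes, and there Calcrl and Ramp1 fell short of 2-fold.

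Among the opioid peptides and receptors, 8 genes were tested, Pnoc was higher and Penk lower (median log2 fold change -0.01), beside 1.4% higher and 2.46% lower over all genes tested. Penk, the enkephalin precursor, was at 46.8 ± 26.7 CPM (SD, n = 5) against 130.1 ± 20.9 CPM (SD, n = 5) (log2 fold change -1.49, SE 0.17, adjusted p = 2.85e-13). Oprl1, the nociceptin receptor, was at 20.1 ± 13.1 CPM (SD, n = 5) against 9.82 ± 2.30 CPM (SD, n = 5), with overlapping ranges and an adjusted p of 0.155. Oprm1, the mu opioid receptor, was at 143 ± 21.8 CPM (SD, n = 5) against 95.2 ± 11.8 CPM (SD, n = 5) and did not reach 2-fold (log2 fold change 0.56, SE 0.14, adjusted p = 0.00124). Of 7 other neuropeptide genes tested, Npy was lower and none was higher, beside the same shares over all genes. Npy had no UMI in the 103 Vdr neurons against 2.59, 8.80 and 5.40 CPM in fed 1, 2 and 3 and 17.2 and 9.06 CPM in fasted 1 and 2 in the others, and was at least 4.86-fold lower against 3 counts.

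Among 12 serotonin and dopamine receptors tested, Htr7 was higher and Htr1f and Drd2 were lower (median log2 fold change -0.56), beside 1.4% higher and 2.46% lower over all genes tested. Htr7, a serotonin receptor that raises cyclic AMP, measured 173, 162 and 92.6 CPM in fed 1, 2 and 3 and 153 and 152 CPM in fasted 1 and 2, against 38.3 ± 4.42 CPM (SD, n = 5) (log2 fold change 1.88, SE 0.15, adjusted p = 1.11e-23), with no overlap. Htr1f was at 63.5 ± 30.7 CPM (SD, n = 5) against 286 ± 47.6 CPM (SD, n = 5), and Drd2 at 13.2 ± 8.89 CPM (SD, n = 5) against 63.6 ± 14.99 CPM (SD, n = 5). Htr2a, whose Cre line labelled fed 3, measured 3.53, 0 and 56.8 CPM in fed 1, 2 and 3 and 8.48 and 2.41 CPM in fasted 1 and 2, so that a single library held most of its UMIs, and it did not differ from the other nuclei by the test (adjusted p = 0.993).

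Glutamate receptor genes were called in both directions. Grik1, a kainate receptor subunit, measured 999, 1052 and 914 CPM in fed 1, 2 and 3 and 822 and 845 CPM in fasted 1 and 2, against 159 ± 31.1 CPM (SD, n = 5) (log2 fold change 2.52, SE 0.11, adjusted p = 4.87e-56). It was seen in 78.2% of thinned Vdr neurons, 17.9% of thinned other nuclei and 12.7% of thinned glial nuclei. Of 24 glutamate receptor genes tested, Grik1 alone was higher, and Grik3, Grin2a, Grin2c and Grm5 were lower (median log2 fold change -0.08), beside 1.4% higher and 2.46% lower over all genes tested. Grm5, a metabotropic receptor, measured 1074, 1176 and 1593 CPM in fed 1, 2 and 3 and 1009 and 1319.7 CPM in fasted 1 and 2, against 2820.2 ± 231 CPM (SD, n = 5) (log2 fold change -1.23, SE 0.10, adjusted p = 6.23e-25), and no Vdr neuron value reached those of the others. Grik3 was at 84.5 ± 31.1 CPM (SD, n = 5) against 259 ± 25.7 CPM (SD, n = 5). Grin2a was at -0.86 on the log2 scale against the nuclei with the same exclusion limits, short of 2-fold, as it was without fasted 1 (log2 fold change and adjusted p -0.98 and 1.12e-13).

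Kcnt2, a sodium-activated potassium channel, was at 448 ± 60.7 CPM (SD, n = 5) against 114 ± 24.1 CPM (SD, n = 5) (log2 fold change 1.94, SE 0.11, adjusted p = 9.61e-38). Among 7 T-type and HCN channel genes, Hcn3 and Hcn4 were higher and none was lower (list median log2 fold change 0.56), beside 1.4% higher and 2.46% lower over all genes tested. Hcn4, a slow pacemaker channel, measured 38.8, 18.7 and 8.96 CPM in fed 1, 2 and 3 and 17.0 and 15.7 CPM in fasted 1 and 2, against 3.03 ± 0.842 CPM (SD, n = 5) (log2 fold change 2.63, SE 0.41, adjusted p = 7.66e-08). Hcn3 overlapped the other nuclei and lost its call against the nuclei with the same exclusion limits (adjusted p = 0.0584) and without fed 1, fed 2 or fasted 1 (log2 fold changes and adjusted p 0.98 and 0.129, 0.93 and 0.118, and 0.93 and 0.113). It also lost it against nuclei nearest in total UMIs and with at least 3 Vdr UMIs. Cacna1i, the third T-type channel, was higher in all 5 libraries at 114 ± 27.4 CPM (SD, n = 5) against 54.1 ± 9.02 CPM (SD, n = 5), just under 2-fold (log2 fold change 0.97, SE 0.16, adjusted p = 2.09e-07). Of 17 GABA synapse genes, only Gabrd was lower and none was higher, beside the same shares over all genes. Gabrd lost its call without fasted 2 (log2 fold change and adjusted p -1.40 and 0.0592), against the nuclei with the same exclusion limits and with DESeq2. Against the nuclei with the same exclusion limits 1 other gene of the list was lower.

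Among 13 contactins and contactin-associated proteins, Cntnap3 was higher and Cntnap5c lower (list median log2 fold change 0.25), beside 1.4% higher and 2.46% lower over all genes tested. Cntnap3, a neurexin-family surface protein, measured 420.2, 467 and 317 CPM in fed 1, 2 and 3 and 305 and 359 CPM in fasted 1 and 2, against 47.7 ± 12.3 CPM (SD, n = 5) (log2 fold change 2.94, SE 0.12, adjusted p = 2.24e-59). Cntnap5c was at 72.6 ± 43.9 CPM (SD, n = 5) against 174 ± 30.9 CPM (SD, n = 5). Of 34 axon guidance genes, Dcc and Sema3a were higher and none was lower (list median log2 fold change -0.10), beside the same shares over all genes. Against the nuclei with the same exclusion limits this list gave 3 higher genes and 1 lower. Dcc, a netrin receptor, measured 2938, 2900.2 and 2226 CPM in fed 1, 2 and 3 and 2754 and 2557 CPM in fasted 1 and 2, against 959 ± 159 CPM (SD, n = 5) (log2 fold change 1.44, SE 0.10, adjusted p = 5.86e-32). Sema3a, a secreted guidance cue, was at 382 ± 51.1 CPM (SD, n = 5) against 98.8 ± 15.3 CPM (SD, n = 5). Neither gene's values overlapped those of the other nuclei.

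Transcription factors were the list with the most lower genes. Of 33 subpallial transcription factors tested, 14 were lower, Satb1 and Dlx6 were higher and 17 were neither, beside 1.4% higher and 2.46% lower over all genes tested. The list median was -1.05, beside -0.03 over all genes tested, and the gate itself left out nuclei high in Rarb and Foxp2. Against the nuclei with the same exclusion limits it was -0.84, with 2 higher and 14 lower, but not the same 14, since Meis2, Tshz1 and Tox lost their calls there and Isl1, Lhx8 and Nr2f1 were called in their place. Satb1, a chromatin organizer, measured 237, 243 and 155 CPM in fed 1, 2 and 3 and 246 and 215 CPM in fasted 1 and 2, against 23.9 ± 2.50 CPM (SD, n = 5) (log2 fold change 3.11, SE 0.15, adjusted p = 3.02e-50). Sox6 measured 3.53, 0 and 2.99 CPM in fed 1, 2 and 3 and 8.48 and 8.44 CPM in fasted 1 and 2, against 113 ± 27.3 CPM (SD, n = 5) (log2 fold change -4.42, SE 0.29, adjusted p = 1.48e-32). Lhx6, a factor of pallidal interneurons, gave 2 UMIs in all Vdr neurons, 0.146 times the level of the other nuclei (counting interval 0.0176 to 0.528). Dlx6 lost its call without fasted 1 or fasted 2 (log2 fold changes and adjusted p 0.90 and 0.0120, and 0.87 and 0.114), with at least 3 Vdr UMIs, with doublets removed, without a filter on low counts and once comparison nuclei with glial or excitatory markers were removed. Of the lower genes, Dlx1 lost its call without each of fed 1, fed 2, fasted 1 and fasted 2 (adjusted p = 0.122, 0.0735, 0.0667 and 0.448), Maf without fed 2 or fasted 2 (adjusted p = 0.0679 and 0.395), Npas1 without fasted 2 (adjusted p = 0.155) and Meis2 without fasted 1 (log2 fold change and adjusted p -0.93 and 3.36e-14). With DESeq2, Dlx1, Lhx6, Maf and Npas1 lost theirs. Maf and Npas1 also lost theirs with at least 2 Vdr UMIs. Npas1 lost it as well with at least 3 Vdr UMIs, and Maf once comparison nuclei with glial or excitatory markers were removed. Ebf1 was at 71.4 ± 54.4 CPM (SD, n = 5) against 265 ± 24.2 CPM (SD, n = 5) and Zeb2 at 9.64 ± 5.59 CPM (SD, n = 5) against 49.5 ± 15.7 CPM (SD, n = 5). Of 21 nuclear receptors tested, Rorb and Esr1 were lower and none was higher, beside the same shares over all genes. Rorb lost its call once comparison nuclei with glial or excitatory markers were removed (adjusted p = 0.123) and against nuclei nearest in total UMIs. Esr1 lost its call with DESeq2 and without fed 1 or fasted 2 (log2 fold changes and adjusted p -0.99 and 0.189, and -1.29 and 0.210).

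In the vitamin D system 14 of 20 genes were tested, 1 was higher, 1 lower and 12 neither (list median log2 fold change 0.11). Over all genes tested 1.4% were higher and 2.46% lower. Rxrg, the gamma retinoid X receptor and a partner of the vitamin D receptor, measured 106, 93.4 and 114 CPM in fed 1, 2 and 3 and 59.3 and 60.3 CPM in fasted 1 and 2, against 34.6 ± 3.14 CPM (SD, n = 5) (log2 fold change 1.27, SE 0.18, adjusted p = 9.45e-10). Rxra and Rxrb overlapped the other nuclei, with adjusted p of 0.586 and 0.823. Calb1, the calcium-binding protein calbindin, was at 16.6 ± 9.49 CPM (SD, n = 5) against 51.3 ± 2.89 CPM (SD, n = 5) (log2 fold change -1.30, SE 0.24, adjusted p = 8.76e-06). Cyp27b1, which makes calcitriol, and Cyp24a1, which degrades it, had no UMI in the Vdr neurons and 30 and 13 UMIs in all other Gad1/Gad2 nuclei. These genes were below the test's minimum, and a change in them was not detectable at this depth.

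**Figure D3:**
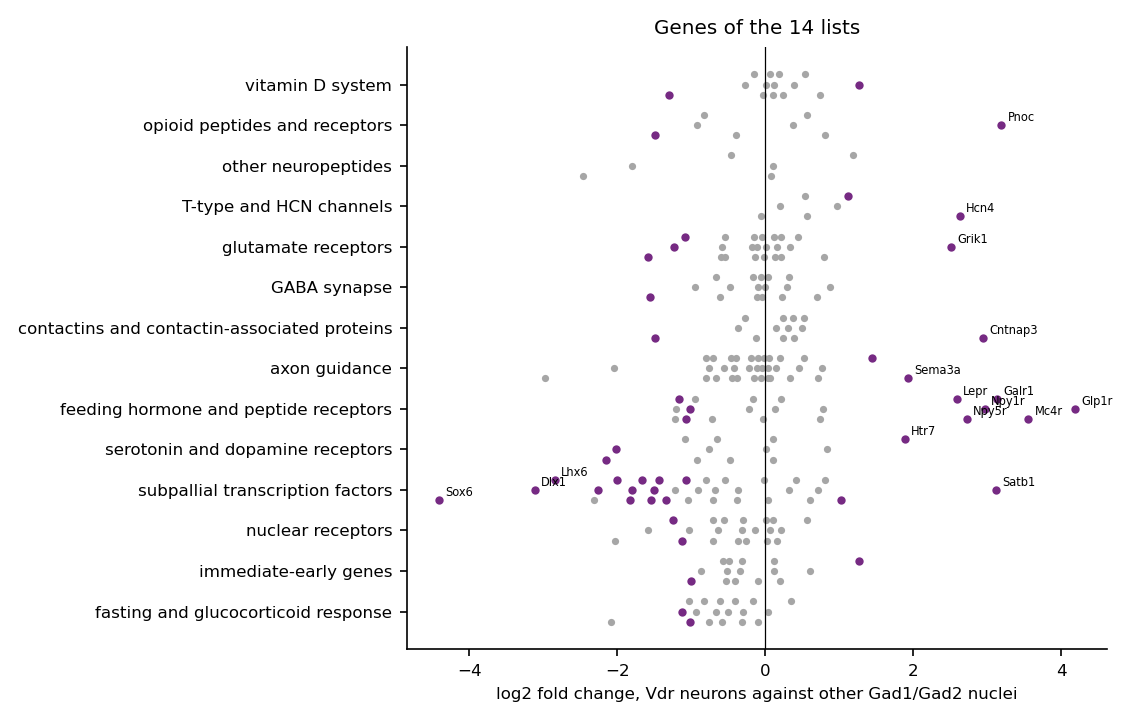
Log2 fold change of Vdr neurons against the other Gad1/Gad2 nuclei for the tested genes of the 14 lists, with 1 point per gene and purple for genes called at an adjusted p under 0.05 and 2-fold. Genes without a UMI in the Vdr neurons are left out. The feeding receptor list holds 6 called genes on the right, led by Glp1r at 4.19, and the transcription factor list holds more called genes on the left than any other list, led by Sox6 at -4.42.

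The 10 genes named for being lower had no UMI in the Vdr neurons. They were C1qb, C1qc, Pdgfra, F3, Slc7a11, Grin2c, Abtb2, Gm973, Npy and Chat. Against 3 counts over the group they were at least 3.03-fold lower for Chat and at least 5.82-fold lower for C1qb. C1qb and C1qc are complement genes of microglia and Pdgfra marks oligodendrocyte precursors, and 330 of the other Gad1/Gad2 nuclei (5.58%) held 5 or more UMIs per 10000 of 12 glial and excitatory markers, against 1 Vdr neuron. With these comparison nuclei removed, C1qb and Pdgfra lost their calls (adjusted p = 0.112 and 0.204) and C1qc was no longer tested, while Chat, the acetylcholine-synthesizing enzyme, and Npy kept theirs (adjusted p = 0.00259 and 1.84e-04). In that comparison 183 genes were higher and 267 lower, and 170 of the 175 higher genes were shared. Without fasted 2, which held the most UMIs, C1qc, F3, Gm973, Slc7a11 and Chat lost their calls (adjusted p = 0.119 for Chat), as they did with DESeq2 on all 5 libraries.

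Promoters of the 20 named higher genes were searched for AGGTCA, the core hexamer bound by the vitamin D receptor and related nuclear receptors, on both strands. A promoter was taken as 250 bases before to 50 after a RefSeq start site on GRCm38.p6. The table held 23 promoters of 16 of the 20 genes, and 2 of them (8.70%) held the hexamer, against 5340 of all 32851 promoters (16.3%). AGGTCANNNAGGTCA, the hexamer repeated with a spacer of 3 bases, was in none of the 23 and in 2 of all promoters. Both matches are shown because they are the named genes in which the hexamer was found, with the hexamer in capitals (as TGACCT, its reverse complement). The first is an alternative start of Satb1 (chr17:51826539-51826838, minus strand) and the second a start of Klhl33 (chr14:50897434-50897733, minus strand).
Satb1: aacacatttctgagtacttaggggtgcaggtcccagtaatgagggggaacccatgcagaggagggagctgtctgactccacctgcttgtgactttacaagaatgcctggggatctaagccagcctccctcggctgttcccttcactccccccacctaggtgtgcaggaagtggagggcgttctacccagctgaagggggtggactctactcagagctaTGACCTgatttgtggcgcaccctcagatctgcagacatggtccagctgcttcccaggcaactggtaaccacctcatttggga
Klhl33: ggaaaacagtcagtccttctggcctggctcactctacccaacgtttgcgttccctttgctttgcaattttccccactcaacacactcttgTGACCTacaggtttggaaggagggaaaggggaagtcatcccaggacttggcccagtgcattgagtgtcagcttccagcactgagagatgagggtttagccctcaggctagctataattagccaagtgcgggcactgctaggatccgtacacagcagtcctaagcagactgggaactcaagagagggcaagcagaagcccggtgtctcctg

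The Vdr neurons were not uniform. The Gad1/Gad2 nuclei were clustered without the gate genes and without Pnoc, and 75 of 103 Vdr neurons (72.8%) fell into 1 cluster of 257 nuclei (4.27% of Gad1/Gad2 nuclei). It held 16 of 23, 8 of 10 and 17 of 22 Vdr neurons of fed 1, 2 and 3 and 12 of 15 and 22 of 33 of fasted 1 and 2. Of nuclei with 3 or more Vdr UMIs 90.4% lay in it, and of nuclei with 1 or 2 only 54.9%. The other 28 Vdr neurons were spread over 14 further clusters, at most 8 in 1 of them. The cluster with 8 was led by Zfp521, Isl1 and Ebf1, 1 with 5 by Prkcd and Sox5, and 1 with 3 by Ptgds, Fth1 and Mt1. Each of the rest held at most 2. Part of the gated set thus lay with nuclei led by genes of other types. The cluster is a description, since it was formed from the same counts.

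The 182 nuclei of this cluster without a Vdr UMI did not carry the whole profile. They had a median of 12124.5 UMIs, against 14022 in the Vdr neurons of the cluster. Npsr1 was at 321 CPM in the Vdr neurons of the cluster and 35.7 CPM in the nuclei without Vdr. Satb1 was at 262 and 21.7 CPM, and Glp1r at 47.1 CPM against no UMI. Cacna1g went the other way, at 163 and 181 CPM. In thinned nuclei Cntnap3 was seen in 20.9% of the cluster nuclei without Vdr, 56.4% of all Vdr neurons and 11.4% of the other Gad1/Gad2 nuclei.

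Nuclei with 3 or more Vdr UMIs were then compared with nuclei with 1 or 2 in the 3 libraries that held at least 5 of each (fed 1, fed 3 and fasted 2). The classes were cut on the Vdr UMIs that also chose the members, so these counts are a description of the members and not independent evidence. Of 4229 genes tested, 35 (0.828%) were higher and 23 (0.544%) lower at an adjusted p under 0.05. Among the 35 higher genes, 19 were also higher in the Vdr neurons as a whole, and among the 23 lower genes 13 were also lower. Over all genes of that comparison 1.4% were higher and 2.46% lower. Nuclei with 3 or more Vdr UMIs made up 52 of the 103 Vdr neurons there, so the comparisons share data. The overlap to be found without a difference was not worked out. Cpne4, a calcium-binding copine, measured 1062, 975 and 691 CPM in nuclei with 3 or more Vdr UMIs of fed 1, fed 3 and fasted 2, against 205, 276 and 150.03 CPM in nuclei with 1 or 2 (log2 fold change 2.17). Rasa4, a Ras GTPase-activating protein, measured 95.9, 193 and 41.8 CPM in nuclei with 3 or more Vdr UMIs of fed 1, fed 3 and fasted 2, against 15.8, 17.8 and 3.57 CPM in nuclei with 1 or 2 (log2 fold change 3.16). In the lower direction, Car10 measured 44.8, 71.9 and 52.7 CPM in nuclei with 3 or more Vdr UMIs of fed 1, fed 3 and fasted 2, against 102, 678 and 547 CPM in nuclei with 1 or 2 (log2 fold change -2.96). All 3 libraries moved the same way for these genes, and the classes did not overlap. Even so, 1 nucleus gave 45 of the 92 Car10 UMIs of Vdr neurons in fed 3 and another 83 of the 182 in fasted 2. Fed 2 and fasted 1, with 4 nuclei of 3 or more Vdr UMIs each, were not in the test. In fed 2, Cpne4 was at 1057 against 596 CPM, Rasa4 at 94.7 against 0 CPM and Car10 at 174 against 401 CPM. In fasted 1, Cpne4 barely differed (674 and 668 CPM) and Car10 was lower (32.1 and 80.6 CPM). Rasa4 went the other way there, on 5 UMIs (32.1 and 46.1 CPM). In the test of the 3 libraries, Cntnap3 and Sema3a were also higher, and Tenm2, Pcdh15, Sox5 and Grm5 also lower. Single nuclei weighed here too. For Sox5, 1 nucleus gave 36 of the 61 UMIs of Vdr neurons in fed 3 and another 76 of the 134 in fasted 2. For Pcdh15, 1 nucleus gave 41 of the 61 UMIs in fed 3.

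This comparison rested on single libraries. Without fasted 2 no gene passed (0 of 3069), and without fed 3 there were 3 higher and 1 lower. Median depth was also higher in nuclei with 3 or more Vdr UMIs than in nuclei with 1 or 2 in each of the 3 libraries, at 13466.5 and 7749 UMIs in fed 1, 16032 and 11362 in fed 3, and 21728 and 20397 in fasted 2, and its part in the result was not tested.

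**Figure D4:**
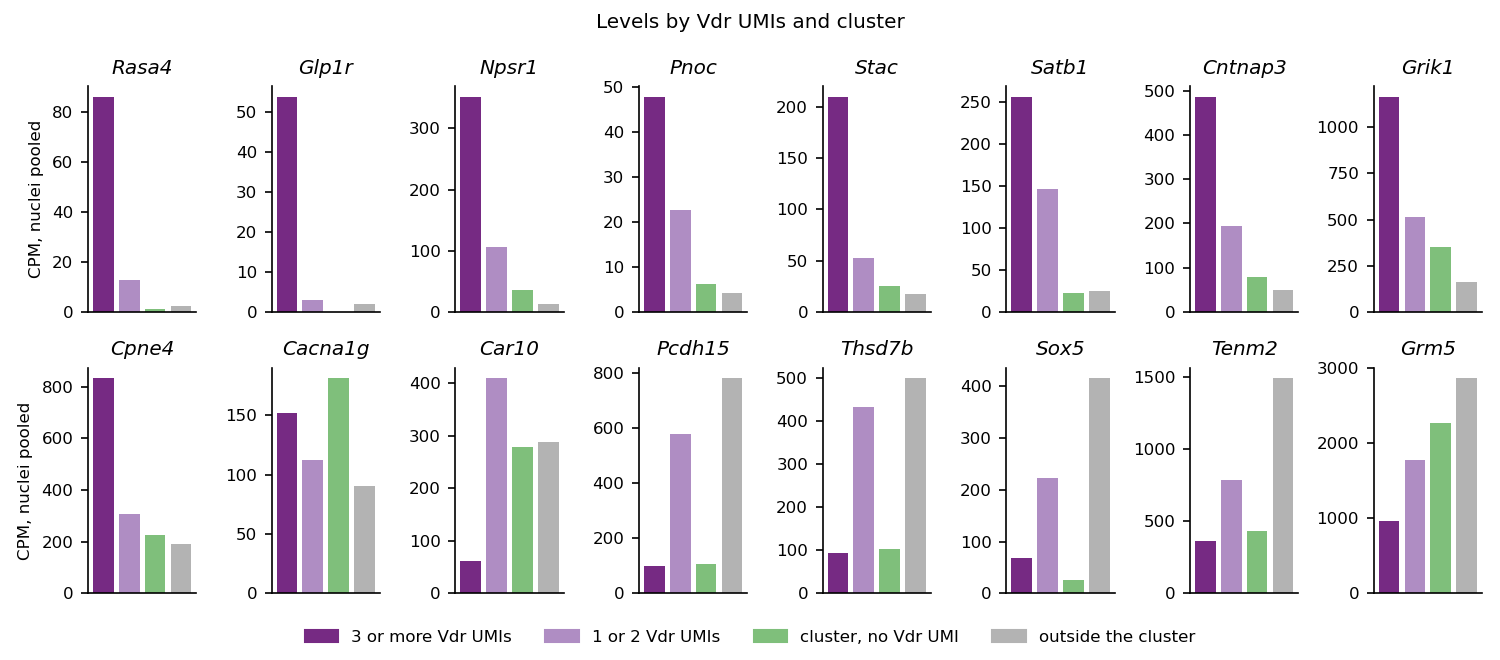
Levels of 16 genes, in CPM of pooled nuclei of the 5 libraries, in Vdr neurons with 3 or more Vdr UMIs, in Vdr neurons with 1 or 2, in nuclei of the same cluster without a Vdr UMI and in Gad1/Gad2 nuclei outside the cluster. Bars have no error since nuclei are pooled. Pooled, Rasa4, Npsr1, Stac and Cntnap3 step down in the Vdr neurons with fewer Vdr UMIs, while Car10, Pcdh15 and Sox5 are higher there. By library, Npsr1 went the other way in fed 2 alone (221 CPM with 3 or more Vdr UMIs, 493 CPM with 1 or 2). Rasa4 (32.1 and 46.1 CPM) and Cntnap3 (257 and 323 CPM) did so in fasted 1 alone. Npsr1 was not called between the classes (adjusted p = 0.0940, edgeR quasi-likelihood test).

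Next, fed and fasted libraries were compared, as the study asked how fasting changes CeA neurons. The share of Vdr neurons among Gad1/Gad2 nuclei was 2.46, 1.16 and 1.67% in fed 1, 2 and 3 and 1.10 and 2.14% in fasted 1 and 2. The means of 1.76 ± 0.654% (SD, n = 3) and 1.62 ± 0.737% (SD, n = 2) differed by -0.140 percentage points, less than the spread between replicates (exact permutation test, two-sided, p = 0.8, where 3 against 2 libraries cannot go below 0.2). The direction turned without fed 1 (0.208 points) and without fasted 1 (0.381 points).

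Within the Vdr neurons no gene passed the main test between fed and fasted libraries. In simulated counts that test found 18.2% of 2-fold and 92.5% of 4-fold changes, so most 2-fold changes would be missed. Of 5285 genes tested with edgeR's quasi-likelihood test, 0 (0.0%) were higher and 0 lower at an adjusted p under 0.05, and 267 had an unadjusted p under 0.05 (5.05%). DESeq2 called 1 gene, Inpp4b. The edgeR likelihood ratio test, the kind of test the study used, called 4 higher genes, Inpp4b, Tmcc3, Fbn2 and Wipf3, and 1 lower, Otof (adjusted p of 0.00549 for Inpp4b, Tmcc3 and Fbn2 and 0.00736 for Wipf3 and Otof). With the preparation batch as a block, 2 genes were higher, Inpp4b (adjusted p = 0.0218) and Col11a1 (adjusted p = 0.0218), and none was lower. The log2 fold change of Col11a1 was 3.12 with the block and 0.78 without it. Fed 3 is alone in its batch and adds nothing to the fasting difference in that fit. The difference then rests on fed 1 with fasted 1 and fed 2 with fasted 2, which leaves little to estimate the spread. Leaving out fasted 1 gave 10 higher and 7 lower genes, without fed 2 there were 2 of each, without fed 1 or fed 3 there were none, and without fasted 2 there were 1 higher and 2 lower. Leaving out a fasted library leaves 1, which is then assumed to vary as the fed libraries do. None of the tested genes of the 14 lists passed, but many list genes had too few counts to be tested. Only 1 of 16 immediate-early genes and 5 of 30 feeding hormone and peptide receptors could be tested.

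In the quasi-likelihood test, the genes with the smallest p in each direction were Inpp4b, Tmcc3 and Fbn2, and Otof, Adarb2 and Alk. Inpp4b, a phosphoinositide phosphatase, measured 614, 722 and 639 CPM in fed 1, 2 and 3 and 1763 and 1186 CPM in fasted 1 and 2 (log2 fold change 1.15, SE 0.21, adjusted p = 0.0748). Both fasted values lay above all 3 fed values, whereas in the other Gad1/Gad2 nuclei the log2 fold change was -0.18. Tmcc3 measured 84.8, 74.7 and 143 CPM in fed 1, 2 and 3 and 203 and 351 CPM in fasted 1 and 2 (log2 fold change 1.51, SE 0.30, adjusted p = 0.0878), and Fbn2, a fibrillin of the extracellular matrix, 24.7, 37.3 and 12.0 CPM in fed 1, 2 and 3 and 67.8 and 106 CPM in fasted 1 and 2 (log2 fold change 2.09, SE 0.44, adjusted p = 0.0939). A single nucleus gave 136 of the 399 Tmcc3 UMIs and 106 of the 302 Adarb2 UMIs. All 8 Fbn2 UMIs of fasted 1 and 5 of the 6 of fed 2 each came from 1 nucleus. Otof measured 261, 131 and 146 CPM in fed 1, 2 and 3 and 67.8 and 51.8 CPM in fasted 1 and 2 (log2 fold change -1.70, SE 0.34, adjusted p = 0.0878), and Alk, a receptor tyrosine kinase, 343, 473 and 786 CPM in fed 1, 2 and 3 and 136 and 278 CPM in fasted 1 and 2 (log2 fold change -1.22, SE 0.32, adjusted p = 0.415). For Inpp4b, Tmcc3, Fbn2, Otof and Alk the fed and fasted values did not overlap. These genes were picked for their small p. The share of all tested genes whose fed and fasted values separate in this way was not worked out. Among nuclei with at least 2 Vdr UMIs, Alk was the 1 gene that passed (log2 fold change -1.71, adjusted p = 0.0281).

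Fkbp5, a glucocorticoid-induced cochaperone, measured 42.4, 49.8 and 56.8 CPM in fed 1, 2 and 3 and 144 and 122 CPM in fasted 1 and 2 in Vdr neurons (log2 fold change 1.37, SE 0.33, adjusted p = 0.259). In the other Gad1/Gad2 nuclei it measured 94.4, 109 and 57.6 CPM in fed 1, 2 and 3 and 189 and 201 CPM in fasted 1 and 2 (log2 fold change 1.14, adjusted p = 0.202). Both kinds of nuclei had higher fasted than fed values, and neither passed the test. The marker genes showed no change that passed either. Pnoc had a log2 fold change of -0.58 and an adjusted p of 0.997, Cntnap3 -0.22 and 0.997, and Npy1r 0.04 and 0.997.

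The whole cluster of 257 nuclei, which has more UMIs but holds 182 nuclei without Vdr, gave 7 higher (0.0846%) and 1 lower (0.0121%) of 8274 genes. Egfem1, Tmcc3, Pdzd2, Spata13, Fkbp5, Ebf1 and Fth1 were higher and Nos1 was lower. Egfem1 measured 199, 169 and 174 CPM in fed 1, 2 and 3 and 667 and 713 CPM in fasted 1 and 2 of the cluster (log2 fold change 1.95, SE 0.17, adjusted p = 7.82e-06), with no overlap. Nos1, the neuronal nitric oxide synthase, measured 72.7, 88.2 and 91.1 CPM in fed and 23.2 and 21.5 CPM in fasted cluster nuclei (log2 fold change -1.94, SE 0.28, adjusted p = 0.00509). In the Vdr neurons alone Egfem1 had a log2 fold change of 0.64 (adjusted p = 0.930) and Nos1 of -1.89 (adjusted p = 0.661). A fit with a block rests on fed 1 with fasted 1 and fed 2 with fasted 2 alone. It leaves little to estimate the spread, so a larger count there is not a firmer result. With the preparation batch as a block the cluster gave 50 higher and 21 lower genes, and without fasted 1, with 1 fasted library left, it gave 1 higher and 0 lower.

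Fth1, a ferritin subunit, moved with the cluster's other genes, and its log2 fold change was 2.63 in the cluster and 2.15 in the other Gad1/Gad2 nuclei (adjusted p = 0.169). The median mitochondrial share of Vdr neurons was 0.133, 0.00910 and 0.0370% in fed 1, 2 and 3 and 0.262 and 0.174% in fasted 1 and 2, higher in both fasted libraries. The part of RNA quality in these differences was not tested.

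**Figure D5:**
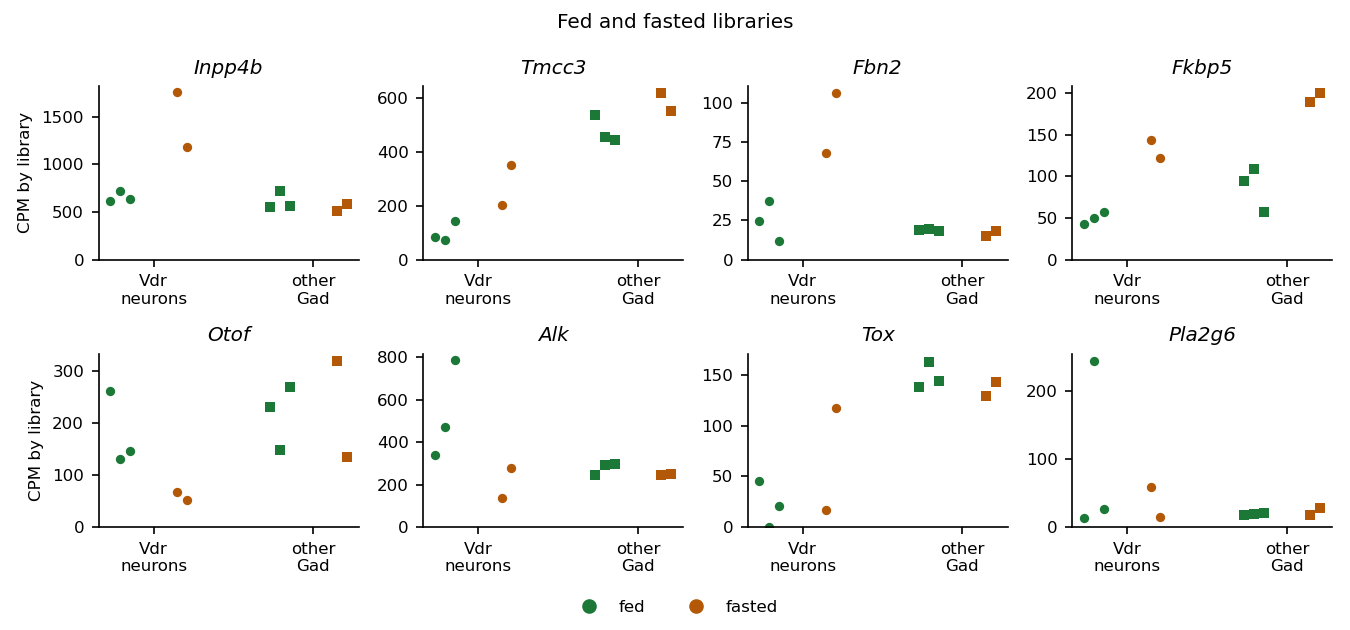
Levels of 8 genes in CPM for each of the 3 fed and 2 fasted libraries, in Vdr neurons (circles) and in the other Gad1/Gad2 nuclei (squares). Inpp4b, Tmcc3, Fbn2 and Fkbp5 have both fasted values above all fed values in the Vdr neurons, Otof and Alk have them below, and Tox and Pla2g6 overlap. The genes were chosen for display, and the share of all genes that separate in this way was not worked out.

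The fasting difference itself was compared between Vdr neurons and the other Gad1/Gad2 nuclei. Of 12537 genes, 10 (0.0798%) had a higher and 7 (0.0558%) a lower difference in the Vdr neurons at an adjusted p under 0.05. Among the higher ones Inpp4b had the smallest p, with a difference of 1.29 on the log2 scale (SE 0.20, adjusted p = 5.35e-07), and Fbn2 reached 2.32 (SE 0.46, adjusted p = 9.50e-04). Over both directions the smallest p was that of Adarb2, at -1.82 (SE 0.28, adjusted p = 5.07e-07). Ptprk, a receptor phosphatase, measured 466, 597 and 394 CPM in fed 1, 2 and 3 and 848 and 898 CPM in fasted 1 and 2 in the Vdr neurons, with both fasted values above the fed ones. Its fasted against fed difference within the Vdr neurons did not pass (log2 fold change 0.87, SE 0.23, adjusted p = 0.415), and the difference between the classes was 0.89 on the log2 scale (SE 0.21, adjusted p = 0.0242). In the test 1 estimate of the spread served sums of 10 to 33 nuclei and sums of 852 to 1507 nuclei, and DESeq2 called only Inpp4b. Of the 17 genes, Inpp4b alone kept its call with each library left out in turn, where leaving out fasted 1 or fasted 2 again leaves 1 fasted library. Without fasted 2 there were 9 calls, 6 of them among the 17.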

How the data were processed

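The authors used the 10x Chromium kit for 3′ ends of transcripts and counted reads with Cell Ranger 5.0.0, as the methods and the file headers state, on GRCm39 with intronic reads included and Cre and mCherry added. The submitters' processing notes name Cell Ranger 2.1.1 and mm10, and the methods and headers were followed. The deposited values are raw UMI counts per gene and barcode, made by the authors after cell calling and without normalization. They covered 22532 genes and were used as deposited. Where several identifiers share a symbol, the symbol stayed with the one of most UMIs.

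Counts of the nuclei of each class were summed per library. Tests used edgeR 4.0.16 (quasi-likelihood, TMM, filterByExpr, R 4.3.3), with the library as a block where classes were compared, and with gate and mitochondrial genes kept in the library sizes and out of the tests. SE was taken as the log2 fold change divided by the square root of F. CPM are counts per 1000000 UMIs of the summed nuclei. Scrublet (scanpy 1.11.5) marked likely doublets, which were kept. Clusters came from 2000 variable genes, 30 components, 20 neighbours and a resolution of 0.8. Thinning to 4000 UMIs left out shallower nuclei. Genes named as higher were the 20, and as lower the 10, of largest fold in both comparisons with 1 sign in all 5 libraries (higher ones with 50 UMIs), and for the other tests the 10 of smallest p in each direction, or 3 where under 3 passed. Genes of the 14 lists could also be named. The members and lists were chosen with earlier results of these data known. Alternatives were DESeq2 1.42.0, the likelihood ratio test, no filter, other comparison nuclei, other Vdr minimums, doublets removed, other cluster resolutions and leaving out each library. The tests were first run on simulated data.

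The study's description puts fed 1 and fasted 1 in a shared preparation batch, and likewise fed 2 and fasted 2, so the numbers pair the samples. It names a further batch of fed mice alone, which was taken by elimination to be fed 3, and the fits with a block rest on this. Deviations from the group means correlated at 0.0470 for replicates 1 and 0.114 for replicates 2 over 5383 genes. For fed 3 with fasted 1, which the description does not pair, the correlation was 0.0950. With 2 fasted libraries the deviations of 1 mirror those of the other, so fed 1 with fasted 2 gave -0.0470. The correlations are therefore not independent and cannot check the pairing. The study's text gives 20 hours of fasting where the label of fasted 2 gives 21. Coordinates of genes come from GENCODE on GRCm39, and promoters from RefSeq on GRCm38.p6.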

Additional observations from a re-analysis of the deposited data

Results flagged for a closer look

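The fasting difference differed between Vdr neurons and the other Gad1/Gad2 nuclei, by the test of the difference itself (edgeR quasi-likelihood, adjusted p under 0.05), for 17 genes. The values are log2 differences, the change in Vdr neurons minus the change in the other nuclei. They were 1.29 for Inpp4b, 2.03 for Tox, 1.31 for Tmcc3, 2.32 for Fbn2, 2.34 for Strip2, 1.09 for Rgs6, 1.17 for Slc9a9, 1.07 for Arhgap6, 0.89 for Ptprk and 2.07 for Col23a1. In the other direction they were -1.82 for Adarb2, -2.04 for Nos1, -1.24 for Otof, -0.94 for Alk, -1.94 for Pla2g6, -1.40 for Cdh11 and -1.03 for 1 of the identifiers named Arhgap26 (Arhgap26_ENSMUSG00000118193).

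Single nuclei weighed heavily in some of these. For Pla2g6, 38 of the 39 UMIs in fed 2 came from 1 nucleus, and the 5 values of 14.1, 243 and 26.9 CPM in fed 1, 2 and 3 and 59.3 and 14.5 CPM in fasted 1 and 2 overlapped. For Adarb2, 1 nucleus gave 73 of the 76 UMIs in fed 1 and another 106 of the 145 in fed 3. For Tox, the UMIs came mostly from fasted 2 (97 of 119), and no UMI was found in fed 2. Its difference turned to -0.48 without fasted 2. Of the 76 Strip2 UMIs, 60 came from fasted 2 and none from fed 2, and Strip2 lost its call without fasted 2. All 8 Fbn2 UMIs of fasted 1 came from 1 nucleus. Col23a1 rested on 50 UMIs from 17 nuclei and lost its call with DESeq2 and without each of fed 1, fed 2 and fed 3. Otof lost its call without fasted 1 or fed 1, and Cdh11 without each of fed 1, fed 3, fasted 1 and fasted 2.

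mCherry was seen in Vdr neurons of fed 3, the library of the Htr2a-Cre mice, and in none of the other 4 libraries. The Vdr neurons of fed 3 held 82 mCherry UMIs, and 14 of 22 nuclei had at least 1 (63.6%, exact 95% interval 40.7 to 82.8%). Among the other Gad1/Gad2 nuclei of the same library, 410 of 1297 had one (31.6%, interval 29.1 to 34.2%), at median depths of 15084 and 14218 UMIs. In the whole cluster that holds most Vdr neurons it was 29 of 51 (56.9%, interval 42.2 to 70.7%). A single library gives no test between groups, and the part of free RNA in these shares was not tested.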

How the results depend on the processing

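The count of genes lower in Vdr neurons was 309, and became 196 against nuclei nearest in total UMIs, 476 for nuclei with at least 3 Vdr UMIs and 185 with DESeq2, while the higher genes ran from 138 to 231 over these and the other alternatives, and leaving out each library gave 136 to 167 higher and 278 to 319 lower genes. For fasted against fed Vdr neurons, the counts of 0 higher and 0 lower became 2 and 0 with the replicate block, 4 and 1 by the likelihood ratio test, 1 and 0 with DESeq2, 7 and 6 without a filter, 0 and 1 with at least 2 Vdr UMIs, 7 and 1 in the cluster and 50 and 21 in the cluster with the replicate block. Leaving out 1 library gave 0 to 10 higher and 0 to 7 lower genes. The 17 genes whose fasting difference differed between classes became 1 with DESeq2 and 9 to 21 with 1 library left out, and Tox, at 2.03, ran from -0.48 without fasted replicate 2 to 2.92 without fed replicate 1. The 58 genes that differed by Vdr UMIs became 96 for 2 or more against 1, 32 with DESeq2, 148 without a filter and 0 to 46 with 1 library left out. The comparison of 2 or more against 1 also used 5 libraries instead of 3. The share difference ran from -0.661 to 0.381 percentage points with 1 library left out, was 0.208 without fed replicate 1, and was -0.452 after thinning. At a resolution of 0.4 the cluster held 82.5% of the Vdr neurons but grew from 257 to 876 nuclei, and at 1.6 it held 71.8% in 257 nuclei. The causes were not tested. For single named genes, 848 alternative values in the comparison with the other nuclei had the same direction and side of the threshold, and 87 lost the call. In the comparison by Vdr UMIs 74 were the same and 39 lost the call. Of the 17 genes of the fasting difference, 16 lost the call with DESeq2, and 6, 2 and 9 without fed 1, 2 and 3. The alternatives with at least 3 Vdr UMIs, with glial and excitatory markers removed, and, for the cluster, its share by library, its replicate block and each library left out were chosen after seeing the data, as was the fit of fasting in the other Gad1/Gad2 nuclei.

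The fed and fasted sums of Vdr neurons held 117991 to 829756 UMIs from 10 to 33 nuclei per library. P-values cover the spread between these 5 pooled libraries.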

Other observations

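Receptor genes were detected in partly overlapping sets of nuclei. Of the 103 Vdr neurons, 41 held a Pnoc UMI and 39 a Npsr1 UMI, and 16 held both, which is 39.0% of the first and 41.0% of the second. Glp1r was seen in 26 nuclei and Mc4r in 23, and 5 held both (19.2% and 21.7%). Glp1r and Npy1r, seen in 26 and 47 nuclei, shared 18 (69.2% and 38.3%). Satb1 and Grik1, in contrast, were detected in all 39 nuclei with a Npsr1 UMI. Of the 5 receptor genes Npsr1, Glp1r, Npy1r, Mc4r and Lepr, 28 nuclei held none, 28 held 1, 20 held 2, 21 held 3, 5 held 4 and 1 held all 5. The nuclei with none had a median of 9329 UMIs and those with 3 had 19637, so that detection moved with depth, whose part was not tested.

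Of 16 immediate-early genes tested, 1 was higher in Vdr neurons than in the other Gad1/Gad2 nuclei (Egr3), 1 was lower (Egr1) and 14 were neither (adjusted p = 0.00324 and 0.0429), beside 1.4% higher and 2.46% lower over all genes. Egr3 measured 7.06, 0 and 20.9 CPM in fed 1, 2 and 3 and 8.48 and 42.2 CPM in fasted 1 and 2, against 9.14 ± 2.57 CPM (SD, n = 5), and was higher in 3 of 5 libraries. Egr3 lost its call without fasted 2 (log2 fold change and adjusted p 0.12 and 0.958), as did Egr1 without fed 1 (-0.71 and 0.309), fasted 1 (-0.92 and 0.0845) or fasted 2 (-0.87 and 0.290). Of the 18 fasting and glucocorticoid response genes tested, Foxo1 and Sgk1 were lower, at 19.2 ± 10.6 CPM (SD, n = 5) against 36.2 ± 4.47 CPM (SD, n = 5) and 87.6 ± 42.7 CPM (SD, n = 5) against 182 ± 13.3 CPM (SD, n = 5), and none was higher, beside the same shares over all genes. Foxo1 fell short of 2-fold without fed 1 or fed 3, and Sgk1 without fed 2 or fasted 2. Sgk1 also lost its call against the nuclei with the same exclusion limits, and Foxo1, Egr3 and Egr1 lost theirs with DESeq2. Egr3 lost its call against nuclei nearest in total UMIs too, and Egr1 with doublets removed.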
